A study of Mus musculus with 12 samples.

Results

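The 10 genes analysed here belong to the G1 step of the cell cycle. They were followed through all 25 clusters of nuclei from the developing mouse cortex and compared between embryos of dams given saline and embryos of dams given ethanol (EtOH). They were taken by name and are 10 of the 23513 genes in the count tables: the D-type cyclins Ccnd1, Ccnd2 and Ccnd3, their kinases Cdk4 and Cdk6, the kinase inhibitors Cdkn1b and Cdkn2c, the pocket proteins Rb1 and Rbl1, and the antiproliferative gene Btg2. All 10 were found in the tables, from 1348 UMIs for Cdkn2c to 88652 UMIs for Rb1 over 50550 nuclei. The data were UMI (unique molecular identifier) counts from snRNAseq of C57BL/6J cortices at embryonic day 14, 1 library per embryo. The saline group held 5 embryos of dams S1 and S2, and the EtOH group 6 embryos of dams E1 and E2, whose dams had received 2.5 g/kg EtOH i.p. daily for 6 injections from E8.5. Dams S1 and E1 formed batch 1 and dams S2 and E2 batch 2, and a saline embryo labelled S2-3 was not used here. With 2 dams per treatment, littermates were treated as separate samples, so p-values measure the spread between embryos and not between dams.

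In G1, D-type cyclins bind Cdk4 or Cdk6 and phosphorylate the pocket proteins, which releases E2F transcription factors and lets the cell enter S phase. The product of Cdkn2c (p18INK4c) binds Cdk4 and Cdk6 and keeps them from cyclin D, the product of Cdkn1b (p27KIP1) holds cyclin-CDK complexes inactive, and Btg2 restrains proliferation and marks neural progenitors that are about to make neurons. In the embryonic cortex, the length of G1 in radial glial cells (RGCs) and intermediate progenitor cells (IPCs) is linked to the choice between renewal and neuron production, and projection neurons (PNs) have left the cycle. The interneuron class (Int) joins migrating and other interneurons with the late interneuron precursors of Cluster 10, which hold RNA of dividing cells, with 558 CPM of Top2a against 116 CPM in Int as a whole and 18.7 CPM in PNs.

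Saline libraries were deeper than EtOH libraries, with 44017566 to 83061737 UMIs from 4437 to 7639 nuclei against 14078316 to 38034349 UMIs from 2346 to 4928 nuclei. The median UMIs per nucleus overlapped, with 6325 to 9051 in saline and 4071.5 to 6911 in EtOH embryos, and shares of nuclei with a UMI were compared after each nucleus was thinned to 2000 UMIs. Of 50226 distinct barcodes, 314 were found in more than 1 library, and any pair of libraries shared 1 to 18. The markers of the major cell types followed the labels: Hes1 had 74.1 CPM in RGCs and 2.97 CPM in PNs, Eomes 347 CPM in IPCs, Neurod2 187 CPM in PNs and Gad2 962 CPM in Int. Saline embryo S2-4 stood apart from the other saline embryos, also in depth, with a median of 6325 UMIs per nucleus, inside the EtOH range, against 8365 to 9051. Without it, treatment and depth per nucleus separated completely, so that their parts in calls made without S2-4 cannot be told apart. Leaving it out raised the genes called between treatments, over the 25 clusters together, from 961 higher and 760 lower to 13401 higher and 5658 lower, so the calls between treatments are given with and without it. Summed CPM of the microglial markers P2ry12 and Ly86 lay between 13.7 and 18.8 in EtOH embryos and between 7.57 and 16.5 in saline embryos, and those of the dividing-cell markers Top2a and Mki67 between 203 and 286 in EtOH and between 223 and 366 in saline embryos.

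The start regions of 3 genes that hold an E2F motif are shown because E2F is the factor that the members control, and Rbl1 is the only one of 7 members with a RefSeq window in which the motif was found. E2f7 and Cdc25a were picked from the other genes with a match when their EtOH values were known, and both were called lower over all nuclei. So was Cdk2, which also held a match, whereas E2f2, E2f3 and Tfdp1 held a match and were not called there. Cdkn2a held a match too, but with 24 UMIs in all nuclei it did not pass the count filter. The 250 bases before the annotated start are from RefSeq on GRCm38.p6, read on the strand of the gene, with the motif in capitals. Rbl1 lies on the minus strand at chr2:157204535-157204784, E2f7 on the plus strand at chr10:110745189-110745438 and Cdc25a on the plus strand at chr9:109875329-109875578.
Rbl1: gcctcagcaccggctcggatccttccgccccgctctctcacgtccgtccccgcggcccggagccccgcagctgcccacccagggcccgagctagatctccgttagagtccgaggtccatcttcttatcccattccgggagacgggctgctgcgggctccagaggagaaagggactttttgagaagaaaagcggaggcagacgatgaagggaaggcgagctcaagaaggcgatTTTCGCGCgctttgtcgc
E2f7: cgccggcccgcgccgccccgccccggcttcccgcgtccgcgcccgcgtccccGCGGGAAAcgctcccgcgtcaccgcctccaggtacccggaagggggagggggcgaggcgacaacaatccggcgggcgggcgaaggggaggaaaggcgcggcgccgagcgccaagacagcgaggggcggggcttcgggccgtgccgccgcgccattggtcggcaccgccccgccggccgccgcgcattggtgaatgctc
Cdc25a: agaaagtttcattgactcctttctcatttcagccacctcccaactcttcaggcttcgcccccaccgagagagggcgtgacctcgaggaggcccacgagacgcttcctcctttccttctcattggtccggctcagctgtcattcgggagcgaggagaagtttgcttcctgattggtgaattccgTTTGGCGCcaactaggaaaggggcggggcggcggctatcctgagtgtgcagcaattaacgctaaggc
The letters searched were TTTCCCGC, TTTCGCGC, TTTGCCGC and TTTGGCGC on both strands, in windows from 250 bases before to 50 bases after the start. Of the 7 members with a window, 1 held the motif, and so did 7 of 20 other G1/S genes with a window (Cdc25a, Cdk2, Cdkn2a, E2f2, E2f3, E2f7 and Tfdp1). Of all 32851 windows, 744 (2.26%) held it. The motif in Rbl1 lay 18 to 11 bases before the start, and none of the 3 windows shown overlapped an annotated exon. Another 7 motifs were searched in the same windows on both strands. TTTGAA or TTCGAA was found in 0 of the 9 windows of the members and in 19.2% of all windows, TGACGTCA in 1 (Btg2; 1.79% of all), TGACG, which lies within TGACGTCA, in 6 (20.8% of all), CACGTG in 3 (Cdk4, Cdk6 and Cdkn2c; 7.15% of all), CTTTGAT in 1 (Cdk4; 3.73% of all), CCAAT in 4 (37.4% of all) and GGGCGG in 7 (35.7% of all). The E2F motif is shown for what the factor is known to do and was not singled out by a test. A match describes the letters only and does not show that a factor binds there.

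The D-type cyclins differed in where their RNA was found. Ccnd2, the cyclin of neural progenitors, had its highest level in late interneuron precursors (Cluster 10, named by the study like all clusters), with 419 ± 83.5 CPM (SD, n = 11), followed by non-mitotic RGCs (Cluster 12) with 378 ± 34.3 CPM, RGC 1 (Cluster 2) with 318 ± 40.6 CPM and interneuron precursors (Cluster 3) with 250 ± 40.1 CPM. Each of these neighbours in the order differed by less than the sum of their SDs, whereas the PN clusters lay between 10.5 and 40.9 CPM. Ccnd1 spanned 4.2-fold between clusters, from 5.99 ± 4.02 CPM in Cluster 19 to 25.2 ± 11.4 CPM in RGC 2 (Cluster 20), with 24.6 ± 4.43 CPM in interneuron precursors. Ccnd3 was highest in RGC 2 with 26.2 ± 10.6 CPM (138 UMIs) and in cortical hem RGCs (Cluster 21) with 24.2 ± 11.2 CPM (159 UMIs), which did not differ beyond their spread, and lowest in Int Cluster 18 with 2.31 ± 2.77 CPM. Here and below, levels of Cluster 20 are over 9 embryos, those of Clusters 21, 23 and 24 over 10 and those of Cluster 25 over 7. Hem RGCs were thus near the top for Ccnd3 and near the bottom for Ccnd1, at 6.79 ± 4.10 CPM. Clusters were made from all genes, so these levels describe the clusters and were not tested.

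The kinases also parted. Cdk6 had 438 ± 59.0 CPM in interneuron precursors and 434 ± 31.4 CPM in non-mitotic RGCs, levels that overlapped, then 315 ± 96.9 CPM in mitotic IPCs (Cluster 17), 291 ± 51.6 CPM in RGC 2 and 252 ± 44.8 CPM in RGC 1. In PNs it had 11.3 to 17.9 CPM in the clusters other than early PNs (Cluster 9), where it had 48.6 ± 10.9 CPM. After thinning, 40.2% of RGC nuclei and 3.24% of PN nuclei had a Cdk6 UMI. Top2a and Mki67, genes of dividing cells, stand here for background in neurons. A Top2a UMI was found in 2.20% and a Mki67 UMI in 4.14% of PN nuclei, so the Cdk6 share lay between the shares of these genes. Cdk4 was nearly even, between 12.1 ± 4.18 CPM in Cluster 25 (n = 7, 26 UMIs) and 44.6 ± 5.61 CPM in non-mitotic IPCs (Cluster 6), a span of 3.7-fold against 39.0-fold for Cdk6.

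The inhibitors differed in how widely their RNA was found. Cdkn2c reached 12.4 ± 5.20 CPM in mitotic IPCs and 12.3 ± 3.16 CPM in RGC 1, against 1.20 ± 0.771 CPM in non-mitotic IPCs and 3.41 ± 1.61 CPM in non-mitotic RGCs, and in PNs as a whole it had 0.593 ± 0.267 CPM. Cdkn1b was as high in non-mitotic IPCs (48.0 ± 9.17 CPM) as in mitotic IPCs (47.7 ± 8.68 CPM). It also had 42.3 ± 5.45 CPM in RGC 1, 38.7 ± 6.42 CPM in non-mitotic RGCs, 37.6 ± 5.62 CPM in interneuron precursors and 37.6 ± 5.79 CPM in late interneuron precursors. Early PNs had 38.9 ± 4.14 CPM of Cdkn1b, with lower levels in callosal PNs of Cluster 1 (24.9 ± 3.09 CPM) and rostral subcortical PNs of Cluster 4 (11.7 ± 2.78 CPM). Btg2 was highest in non-mitotic IPCs with 98.5 ± 9.16 CPM, followed by RGC 2 with 78.4 ± 26.4 CPM and mitotic IPCs with 72.5 ± 14.9 CPM, which overlapped. It had 19.3 ± 6.82 CPM in early PNs and 8.68 ± 2.54 CPM in Cluster 1.

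The pocket proteins differed in reach. Rb1, the retinoblastoma gene, was found in every cluster within a 2.22-fold span, from 141 ± 10.1 CPM in striatal interneurons (Cluster 11) to 312 ± 25.9 CPM in mitotic IPCs, and 273 ± 31.7 CPM in the Reln cells of Cluster 14. Rbl1 (p107) had 184 ± 20.8 CPM in interneuron precursors, 160 ± 15.8 CPM in RGC 1, 154 ± 16.9 CPM in mitotic IPCs and 150 ± 29.1 CPM in late interneuron precursors, neighbours whose differences were smaller than the sum of their SDs, against 50.9 ± 11.04 CPM in non-mitotic IPCs and 14.9 to 33.5 CPM in PN clusters.

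**Figure D1:**
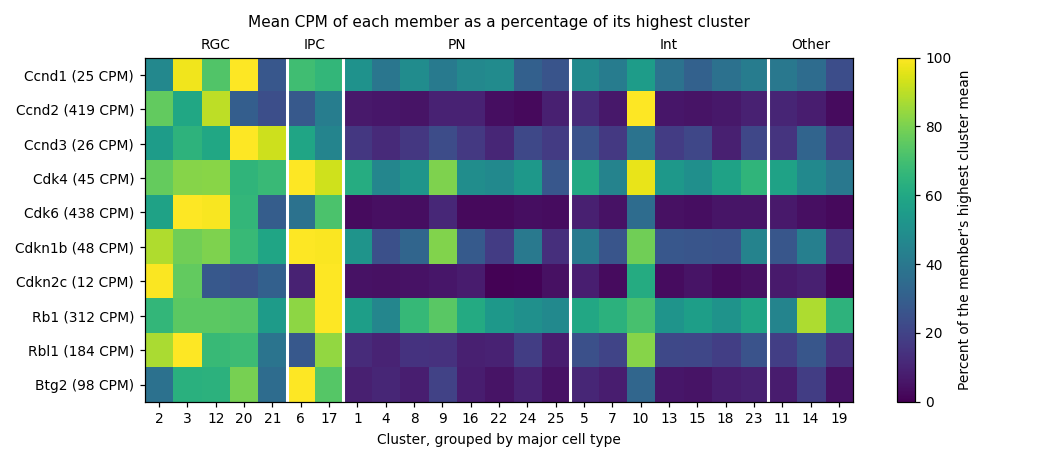
Mean CPM over embryos of the 10 members (rows) in the 25 clusters (columns, grouped by major cell type), each as a percentage of that member's highest cluster, whose CPM stands beside the name. Ccnd2, Cdk6, Cdkn2c, Rbl1 and Btg2 are dark (low) in the PN columns, whereas Cdk4 and Rb1 are mid-range there.

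The genes whose pattern over the 25 clusters was most like each member's were found among 11621 genes with at least 10 CPM in a cluster, by Pearson correlation of log2(CPM + 1). For Ccnd2 the nearest gene was Gm43126 (r = 0.983), followed by Chaf1a (r = 0.958) and Zgrf1 (r = 0.954), and for Cdk6 it was Gm17590 (r = 0.977), followed by Fmr1 (r = 0.97). In GENCODE M21 on GRCm38, Gm43126 is an antisense gene that overlaps Ccnd2 (chr6:127125162-127152193, minus strand), and Gm17590 is one that overlaps Cdk6 (chr5:3341485-3531008, plus strand). The paper names default Cell Ranger settings and does not state the strand counted, and whether reads of these pairs were mixed was not tested. For Rbl1 (chr2:157145893-157204534, minus strand) the nearest were Rrm1 (r = 0.983), Stag1 (r = 0.98) and Ctdspl2 (r = 0.979), and for Cdkn2c Omd (r = 0.977), Cenpi (r = 0.973) and Kif18a (r = 0.972). Nearest to Btg2 were Zfand6 (r = 0.961), Gli2 (r = 0.957) and Tead2 (r = 0.956), and to Cdkn1b Golph3l (r = 0.977), Txlna (r = 0.956) and March5 (r = 0.953). Cdk4 was most like Fam168b (r = 0.973), Paip1 (r = 0.97) and Cbx1 (r = 0.969), and Ccnd3 most like Stx4a (r = 0.951), Arl14ep (r = 0.951) and Ift74 (r = 0.95). Ccnd1 and Rb1 had no such close match, with Trit1 (r = 0.843), 2810405F17Rik (r = 0.835) and Cxxc1 (r = 0.831) for Ccnd1 and Kif19a (r = 0.857), Zfp760 (r = 0.85) and Btbd17 (r = 0.818) for Rb1. Clusters share libraries and these correlations are descriptions. Of the other members, Ccnd1, Ccnd3, Cdk4, Rb1 and Rbl1 also overlap a gene on the other strand, and Cdkn1b, Cdkn2c and Btg2 do not.

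To ask which members go with division inside a cluster, nuclei of the proliferating clusters were parted by whether a UMI of Top2a, the topoisomerase made in S, G2 and M, remained after thinning. Adjusted over all genes of a cluster, Rbl1 was higher in nuclei with a Top2a UMI in Clusters 2, 3 and 10, Cdk6 was higher in Cluster 2, and Btg2 was lower in Cluster 2. These 5 of 48 member and cluster pairs compare with 5.63% of all gene and cluster pairs over the 5 clusters, and they were 5 of 30 in Clusters 2, 3 and 10, where 7.96% of all pairs passed. Cluster 20 gave 7 embryos with enough nuclei, and cortical hem RGCs (Cluster 21) gave fewer than 6 and were not tested. In Clusters 17 and 20 no gene passed the adjustment. With 7 embryos the smallest exact p in Cluster 20 is larger than with 11, so the adjusted test could hardly give a call there. Over the 5 clusters, 17 of the 48 member pairs had an unadjusted exact p under 0.05, beside 19.4% of all gene and cluster pairs.

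In late interneuron precursors (Cluster 10), Rbl1 had from 156 to 315 CPM (median 246) over the 11 embryos in 946 nuclei with a Top2a UMI and from 66.5 to 171 CPM (median 81.3) in 1412 nuclei without one. The difference of 1.42 ± 0.378 on the log2(CPM + 1) scale was positive in 11 of 11 embryos (exact sign-flip permutation test, two-sided, p = 0.000977, the smallest that 11 embryos allow, adjusted p = 0.0262). In RGC 1 it was 0.67 ± 0.255, again in 11 of 11 embryos (exact permutation p = 0.000977, adjusted p = 0.0191), and in interneuron precursors 0.77 ± 0.657, in 10 of 11 embryos (exact permutation p = 0.00293, adjusted p = 0.0386). Parted by Mki67 in place of Top2a, the Rbl1 differences were 0.64 in Cluster 10, 0.37 in Cluster 2 and 0.41 in Cluster 3, each positive in 11 of 11 embryos.

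Cdk6 in RGC 1 had from 193 to 376 CPM (median 298) in nuclei with and from 126 to 266 CPM (median 180) in nuclei without a Top2a UMI, a difference of 0.68 ± 0.409 in 11 of 11 embryos (exact permutation p = 0.000977, adjusted p = 0.0191). In interneuron precursors, where Cdk6 was highest, the difference was 0.13 ± 0.481, positive in 6 of 11 embryos (exact permutation p = 0.526). Btg2 in RGC 1 went the other way, with 12.6 to 44.3 CPM (median 27.1) in nuclei with and 34.7 to 68.6 CPM (median 51.7) in nuclei without a Top2a UMI, a difference of -0.86 ± 0.632 with 0 of 11 embryos higher (exact permutation p = 0.000977, adjusted p = 0.0191). In mitotic IPCs its value was 1.24 ± 1.49, with 9 of 11 embryos higher (exact permutation p = 0.0205, adjusted p = 0.234), and the difference between these clusters was not tested. With the nuclei parted by Mki67 in place of Top2a, Btg2 had -0.31 in RGC 1, with 3 of 11 embryos higher and no call, and 0.26 in mitotic IPCs, with 4 of 11 embryos higher. Cdk6 in RGC 1 then had 0.42, in 11 of 11 embryos.

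Cdkn2c was counted sparsely, with 25 UMIs in nuclei with and 5 in nuclei without a Top2a UMI in Cluster 10, and 30 against 4 in Cluster 17, and did not pass the adjustment over all genes (adjusted p = 0.0816 and 0.164). These totals also depend on the number of nuclei, as on average 39.0% of Cluster 10 and 74.5% of Cluster 17 nuclei had a Top2a UMI. For Ccnd2, the difference was 0.34 ± 0.340 in RGC 1 and 0.34 ± 0.277 in Cluster 10, positive in 10 of 11 embryos in both, with adjusted p of 0.0778 and 0.0527 (exact permutation tests). Rb1 in RGC 1 had a difference of 0.00045 ± 0.238 on the same scale.

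**Figure D2:**
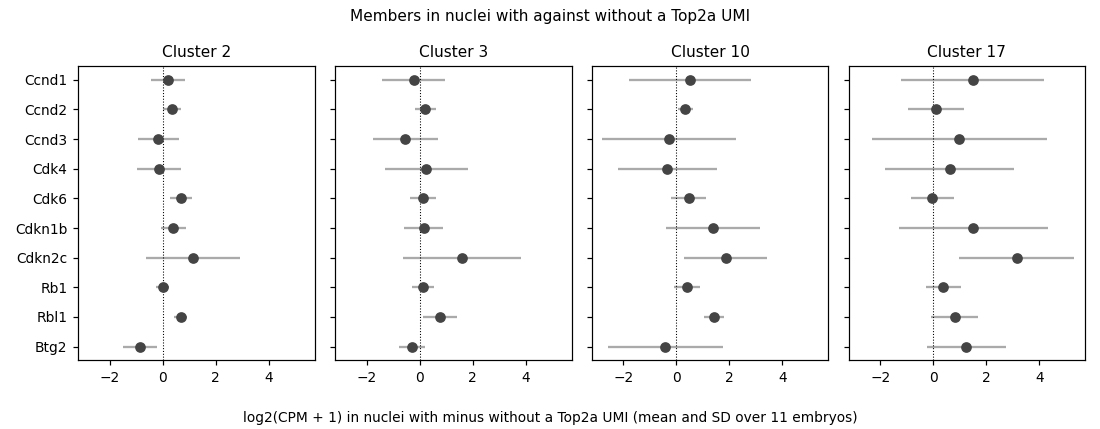
Difference in log2(CPM + 1) between nuclei with and without a Top2a UMI, after thinning to 2000 UMIs, for each member (rows) in 4 proliferating clusters (panels). Points are means and bars SDs over 11 embryos. Rbl1 lay right of 0 in the 4 panels, and Btg2 lay left of 0 in Clusters 2, 3 and 10.

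Both inhibitors stand among the 12 genes that the study used to call nuclei G2/M, although their products act on G1 kinases, so their share of the list's UMIs was measured. A share of UMIs is not the weight of a gene in the phase score. Cdkn1b gave 2.85 ± 0.585% (SD, n = 11) of the list's UMIs in RGC 1 and 2.86 ± 0.464% in mitotic IPCs, where Top2a gave 48.2 ± 2.97% and 47.2 ± 3.61%. In PNs Cdkn1b gave 23.8 ± 3.18%, beside 23.4 ± 4.15% from Top2a. In early PNs Cdkn1b gave 47.0 ± 10.1% of 1385 UMIs and in non-mitotic IPCs 36.8 ± 10.0% of 3204 UMIs, whereas Cdkn2c gave at most 1.86% in any cluster. When phases were called again without both genes, the percentage of nuclei called G2/M went from 11.3 ± 2.05% to 9.97 ± 2.15% in PNs, from 23.7 ± 3.50% to 20.4 ± 2.93% in IPCs and from 31.8 ± 3.67% to 32.8 ± 3.50% in RGCs. The percentage with both genes was higher in 9 of 11 embryos in PNs, in 10 of 11 in IPCs and in 1 of 11 in RGCs. With another seed for the control genes of the score, the PN values were 8.47 ± 1.75% with and 7.15 ± 1.84% without both genes, a larger shift than that from the genes.

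**Figure D3:**
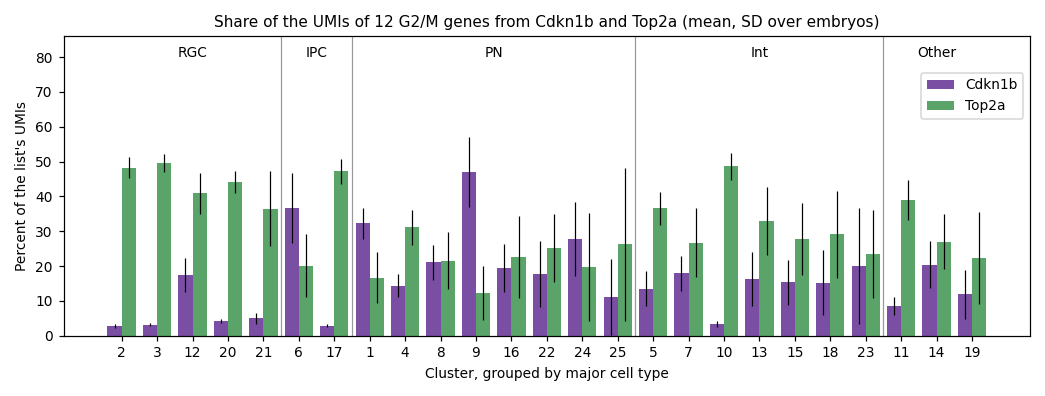
Percentage of the UMIs of the study's 12 G2/M genes that came from Cdkn1b and from Top2a in each cluster (columns, grouped by major cell type). Bars are means and lines SDs over embryos with at least 10 nuclei. Cdkn1b exceeded Top2a in Clusters 1, 6, 9 and 24.

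To ask whether EtOH changed the members, counts were summed per embryo in each cluster, in each major cell type and over all nuclei, and tested with edgeR. A gene was called at an adjusted p (Benjamini-Hochberg over all genes tested in that unit) under 0.05 with a fold change below 0.8 or above the inverse of 0.8. Cdk6 was lower after EtOH in callosal PNs of Cluster 1 and in PN 1 (Cluster 8), to 0.464 and 0.492 of the saline level. These were 2 of 177 member tests in the 25 clusters, with 0 called higher, and over all genes 0.350% of 217253 tests were called lower. Of the 177 log2 fold changes 117 were negative and their median was -0.07, while the medians over all genes of each cluster lay between -0.00702 and 0.0145. The 177 tests were those of 250 pairs that passed the count filter, and Cdkn2c passed it in 4 clusters. Of the other PN clusters, Cdk6 did not pass the count filter in Clusters 22, 24 and 25 and was not called in the rest. In Int clusters, where it was not called either, its fold ran from 0.568 in Cluster 18 to 1.04 in Cluster 10. Of the 20 cluster values of Cdk6, 18 were negative and 2 positive. In the other PN clusters tested, Cdk6 had a fold of 0.39 in Cluster 16 (adjusted p = 0.111), 0.812 in Cluster 4 (adjusted p = 0.596) and 0.998 in Cluster 9 (adjusted p = 0.997).

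In Cluster 1, Cdk6 had 23.3, 13.2, 15.8, 23.2 and 9.21 CPM in saline embryos S1-1, S1-2, S2-1, S2-2 and S2-4. Those of EtOH dams lay between 5.07 and 11.8 CPM with a median of 7.97 CPM. The groups overlapped through S2-4. The log2 fold change was -1.11 (SE 0.268, adjusted p = 0.0396). In Cluster 8, the saline embryos had 32.6, 20.02, 18.02, 23.1 and 19.6 CPM and the EtOH embryos 3.51 to 14.7 CPM with a median of 13.1 CPM, so every EtOH embryo lay below every saline embryo. How many of all genes had groups without overlap was not counted, here or below. The log2 fold change was -1.02 (SE 0.236, adjusted p = 0.0423). Of genes tested, 1.69% were called lower in Cluster 1 and 0.865% in Cluster 8. Within batches 1 and 2, the log2 ratio of mean CPM was -1.01 and -1.07 in Cluster 1 and -0.92 and -0.94 in Cluster 8.

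With batch as a term both calls were lost (adjusted p = 0.0515 in Cluster 1 and 0.0573 in Cluster 8), and after thinning to 2000 UMIs Cdk6 did not pass the count filter in either cluster. Both calls were also lost when any embryo other than S2-4 was left out, while the log2 fold change stayed between -1.28 and -0.92 in Cluster 1 and between -1.12 and -0.81 in Cluster 8. Without S2-4, 1 member test was called higher and 8 lower, the lower ones being Cdk6 in Clusters 1, 7, 8 and 16, Rbl1 in Clusters 4, 9 and 16, and Ccnd2 in Cluster 1, and the higher one Ccnd1 in Cluster 1 (log2 fold change 0.88, SE 0.22, adjusted p = 0.00641). Over all genes without S2-4, 2.61% of tests were called lower and 6.17% higher, in a comparison where every saline embryo was deeper per nucleus than every EtOH embryo.

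Of the markers of dividing cells, 1 of 4 tests in these clusters passed. Mki67 was lower after EtOH in Cluster 8 (log2 fold change -0.999, SE 0.214, adjusted p = 0.0405), with values of -0.71 (adjusted p = 0.208) in Cluster 1, and Top2a had -0.85 (adjusted p = 0.237) in Cluster 1 and -0.60 (adjusted p = 0.28) in Cluster 8. Hes1, the RGC marker, reached 2.09 CPM in the former cluster and 2.78 CPM in the latter and did not pass the count filter. Nuclei holding a UMI of Top2a, Mki67 or Hes1, without thinning, made up 19.95 to 47.1% of saline and 5.74 to 18.6% of EtOH nuclei in Cluster 1, where depth also differed. Without those nuclei, an alternative chosen after seeing the data, neither value was called, and Cdk6 had log2 fold changes of -1.20 (SE 0.342, adjusted p = 0.0716) in Cluster 1 and -1.16 (SE 0.29, adjusted p = 0.0572) in Cluster 8. Over all alternatives the adjusted p lay between 6.14e-07 and 0.101 in Cluster 1 and between 7.27e-07 and 0.12 in Cluster 8. The part of RNA from other cells in the result was not tested.

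**Figure D4:**
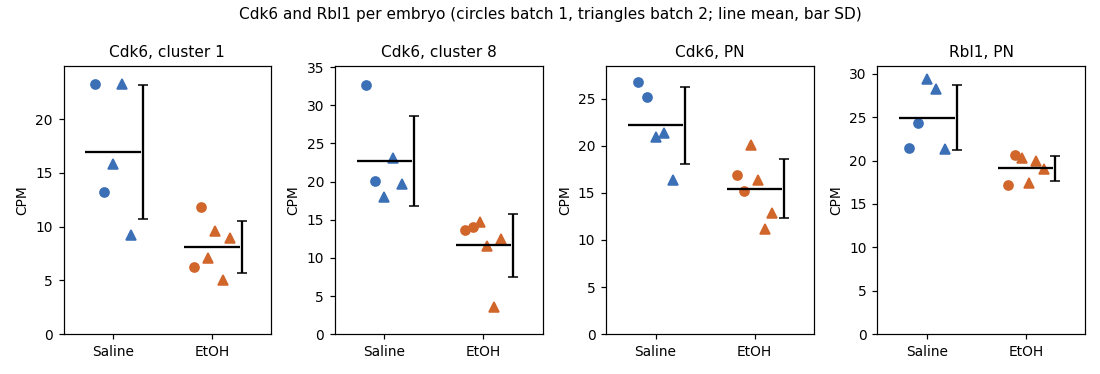
CPM of Cdk6 in Cluster 1, in Cluster 8 and in all PNs and of Rbl1 in all PNs, 1 point per embryo (circles batch 1, triangles batch 2), with the mean as a line and the SD as a bar. The EtOH embryos lay below all saline embryos for Cdk6 in Cluster 8 and for Rbl1 in PNs.

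Summed over major cell types, which also moves with the mix of clusters, 2 of 48 member tests were called lower and 0 higher, beside 1.29% of 67335 tests called lower over all genes. Both were in PNs, where 2.36% of genes were called lower. Rbl1 had 21.5, 24.3, 29.4, 28.3 and 21.4 CPM in saline embryos S1-1, S1-2, S2-1, S2-2 and S2-4 and 17.2 to 20.6 CPM in EtOH embryos with a median of 19.5 CPM. The groups did not overlap, and the log2 fold change was -0.42 (SE 0.0939, adjusted p = 0.0268). Within batches 1 and 2 the log2 ratio of means was -0.27 and -0.46. Nuclei holding a UMI of Top2a, Mki67 or Hes1, without thinning, made up 21.1 to 45.1% of saline and 10.9 to 17.9% of EtOH nuclei in PNs. Without those nuclei the log2 fold change of Rbl1 was -0.51 (SE 0.11, adjusted p = 0.0256, between 0.000425 and 0.125 over all alternatives).

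Cdk6 in PNs had 26.8, 25.2, 20.98, 21.4 and 16.4 CPM in the saline embryos in the same order and 11.2 to 20.1 CPM in EtOH embryos with a median of 15.8 CPM, so the groups overlapped. Its log2 fold change was -0.58 (SE 0.165, adjusted p = 0.0464), with -0.70 and -0.37 as the log2 ratios of means in batches 1 and 2. In the same PN fit, Mki67 had -0.76 (adjusted p = 0.0519) and Hes1 -0.13 (adjusted p = 0.806). Counts summed per dam gave no call for either gene in PNs (adjusted p = 0.214 for Cdk6 and 0.125 for Rbl1). Leaving out 1 embryo ended the call of Cdk6 in PNs for each of the 10 embryos other than S2-4 and that of Rbl1 for 6 of 11 embryos, and without S2-4 Ccnd1 was called higher in PNs (log2 fold change 0.50) and in Int (log2 fold change 0.47), beside 12.2% of all tests in major cell types called higher without it. The lower calls without S2-4 were the same 2, Cdk6 (log2 fold change -0.68, adjusted p = 0.0029) and Rbl1 (log2 fold change -0.48, adjusted p = 0.000425) in PNs, beside 4.63% of all tests.

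The remaining members were not called in any major cell type. Rb1 in PNs had 179 to 189 CPM in saline and 168 to 178 CPM in EtOH embryos, with a log2 fold change of -0.15 (SE 0.0463, adjusted p = 0.0539). Cdkn1b in PNs had -0.25 (SE 0.0777, adjusted p = 0.0517) and Ccnd2 -0.38 (SE 0.159, adjusted p = 0.124). Ccnd1 was on the other side, with 0.35 (SE 0.152, adjusted p = 0.123) in PNs (log2 ratio of means 0.92 in batch 1 and 0.10 in batch 2) and 0.36 (SE 0.16, adjusted p = 0.16) in Int, and 14 of its 17 cluster values were positive. In RGCs, Ccnd2 had 0.04 (SE 0.072), Cdk6 -0.12 (SE 0.127), Rbl1 -0.08 (SE 0.0711) and Cdk4 0.18 (SE 0.0756), and the smallest adjusted p of a member was 0.126, for Cdkn1b at -0.20 (SE 0.0835). In IPCs, Cdkn2c had 0.39 (SE 0.269) and Btg2 -0.03 (SE 0.0842), and neither passed.

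Whether the effect in RGCs differed from that in PNs was tested on the log2 ratio of RGC over PN CPM in each embryo. It was larger after EtOH for Cdk6 by 0.48 (exact permutation p = 0.0152), for Ccnd2 by 0.43 (exact permutation p = 0.0238) and for Rbl1 by 0.36 (exact permutation p = 0.0216). These 3 of 9 members tested compare with an unadjusted p under 0.05 in the same direction for 9.02% of 9122 genes. With adjustment over those genes no gene passed, member or not (lowest adjusted p = 0.29 among members, exact permutation). Without S2-4 the differences of the same 3 members were 0.56, 0.50 and 0.42, beside 9.94% of genes, and again no gene passed (lowest adjusted p = 0.224 among members, exact permutation). Cdk6 ratios ran from 3.44 to 4.16 in saline and from 4.00 to 4.67 in EtOH embryos and overlapped.

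**Figure D5:**
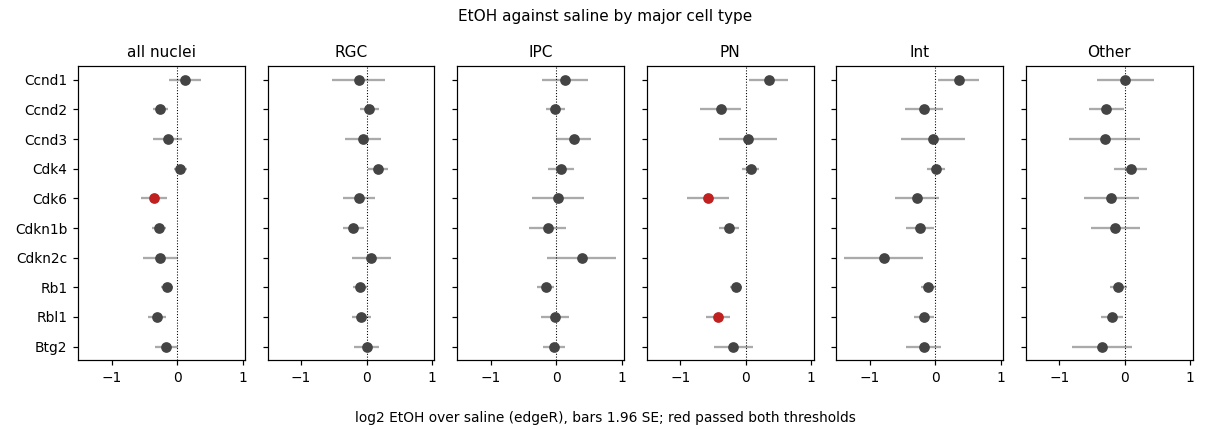
Log2 fold change of EtOH over saline from edgeR for each member (rows) over all nuclei and in the major cell types (panels), with bars of 95% intervals. Red points passed both thresholds, which were Cdk6 over all nuclei and Cdk6 and Rbl1 in PN. Cdkn2c has no point in PN and Other, where it did not pass the count filter.

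Over all nuclei of an embryo, which also moves with the mix of cell types, 1 of 10 members passed both thresholds, beside 3.55% of 18138 genes called lower. Cdk6 had 120, 124, 122, 100.3 and 108 CPM in saline embryos S1-1, S1-2, S2-1, S2-2 and S2-4 and 77.9 to 113 CPM in EtOH embryos with a median of 94.6 CPM, overlapping groups, and a log2 fold change of -0.35 (SE 0.101, adjusted p = 0.0325). With no fold limit, 5 of 10 members passed, all lower, where 10.5% of all genes passed and were lower. The other 4 were Cdkn1b (-0.28, SE 0.0557, adjusted p = 0.0149), Ccnd2 (-0.26, SE 0.0596, adjusted p = 0.0189), Rbl1 (-0.31, SE 0.0722, adjusted p = 0.0195) and Rb1 (-0.15, SE 0.0454, adjusted p = 0.0345). The fold of Rbl1 was 0.809, beside the limit of 0.8, and the call of Cdk6 was lost after thinning (log2 fold change -0.24, adjusted p = 0.151), with counts summed per dam (log2 fold change -0.41, adjusted p = 0.0852), without TMM scaling of the libraries (log2 fold change -0.27, adjusted p = 0.057) and when any of 7 of the 11 embryos was left out (S1-1, S1-2, S2-1, E1-2, E2-1, E2-2 or E2-3; log2 fold change -0.35 to -0.30 over these). Without S2-4, which was not one of the 7, Cdk6 was again the 1 member called (log2 fold change -0.39, SE 0.102, adjusted p = 0.0112), beside 6.38% of all genes called lower.

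The share of nuclei with a UMI, thinned to 2000 UMIs, gave no call for any gene in any cluster. The lack of a member call is thus nothing particular to the members. With 5 against 6 embryos the exact p cannot fall below 0.00216. Of 214 member and cluster pairs with a mean share of at least 1%, 14 had an unadjusted exact p under 0.05, all with the lower share after EtOH, beside 4.60% of all gene and cluster pairs in that direction, and the lowest adjusted p was 0.185 (exact permutation). Without S2-4, 18 of 214 pairs had such a p with the lower share after EtOH, beside 4.84% of all pairs, and 2 with the higher share, and the lowest adjusted p was 0.0884 (exact permutation). In Cluster 1, 3.63 ± 1.40% of saline (n = 5) and 1.22 ± 0.706% of EtOH nuclei (n = 6) had a Cdk6 UMI (exact permutation p = 0.00433), and in Cluster 8 5.82 ± 0.571% and 3.83 ± 0.711% had an Rbl1 UMI (exact permutation p = 0.00216). Both are among the pairs with the smallest p. The p of 0.00433 (exact permutation) was also reached by 3 pairs: Cdk6 in Int Cluster 18 (4.11 ± 2.14% and 0.627 ± 0.989%), Rbl1 in Cluster 4 (3.56 ± 0.869% and 2.17 ± 0.457%) and Rb1 in Cluster 16 (36.9 ± 4.81% and 24.3 ± 5.25%). Cdk6 in Int Cluster 5 had 5.39 ± 1.30% and 2.69 ± 1.39% (exact permutation p = 0.0173). Summed counts of Rbl1 in Cluster 8 gave a log2 fold change of -0.23 and no call (edgeR adjusted p = 0.33). For Cdk6 in Cluster 8 the shares were 3.86 ± 1.655% and 1.85 ± 0.985% (exact permutation p = 0.01515). At the same depth 2.10% of Cluster 1 nuclei had a Top2a UMI and 4.455% a Mki67 UMI, as means over all 11 embryos. The mean Cdk6 share of Cluster 1 lay above the Top2a value in saline and below it in EtOH embryos. It lay below the Mki67 value in both groups. Top2a and Mki67 themselves had edgeR log2 fold changes of -0.85 and -0.71 in Cluster 1, without a call, so neither share is a background common to both groups.

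The wider G1/S step was followed with 24 more genes: cyclins E, Cdk2 and its activator Cdc25a, other inhibitors, the E2F factors with their partners Tfdp1 and Tfdp2, Rbl2, Skp2, Cks1b, Btg1 and Tob1. In the 25 clusters, 0 of 319 tests were called by edgeR, with 48 at an unadjusted p under 0.05, beside 17.4% of tests over all genes, and their median log2 fold change was -0.04. DESeq2 called 2 of the tests, E2f7 lower in Cluster 3 and Btg1 higher in Cluster 2, beside 2.60% of tests over all genes called by DESeq2 in either direction. In major cell types, 4 of 100 tests were called, all lower, beside 1.29% of tests over all genes: the repressor E2f7 in RGCs (-0.34, SE 0.0778, adjusted p = 0.0402), the antiproliferative gene Tob1 in RGCs (-0.48, SE 0.124, adjusted p = 0.0445) and PNs (-0.42, SE 0.109, adjusted p = 0.0352), and E2f8 in PNs (-0.98, SE 0.288, adjusted p = 0.0458). These genes were named after their values were seen. Over all nuclei, E2f7, Cdk2, Tob1 and Cdc25a were called lower among 22 tested, beside 3.55% of all genes, E2f7 with a log2 fold change of -0.55 (SE 0.106, adjusted p = 0.0148) and Cdk2 with -0.65 (SE 0.144, adjusted p = 0.017). Without S2-4, 10 of 320 tests of these genes in clusters were called lower and 5 higher, beside 2.61% and 6.17% of tests over all genes, 9 of 100 in major cell types lower and 3 higher, beside 4.63% and 12.2%, and 7 of 22 over all nuclei lower and 0 higher, beside 6.38% lower.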

How the data were processed

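The authors aligned snRNAseq reads with Cell Ranger to mm10 (submitters' processing notes), filtered and clustered nuclei, and deposited UMI counts per nucleus, 1 table per embryo and cluster. All 275 tables held whole numbers. The authors' filters and cluster names were kept, and doublets were not called here. Counting by strand is not given in the sources used here. Counts were summed per embryo and unit (at least 10 nuclei) and tested with edgeR 4.0.16 (TMM, filterByExpr, robust quasi-likelihood test, Benjamini-Hochberg adjustment, R 4.3.3). Embryos were the replicates, and 95% intervals are the log2 fold change with 1.96 SE of that fit on either side. Other tests were two-sided exact permutation tests over embryos, with 0.00216 as the smallest p for 5 against 6 embryos. Their p-values were adjusted over all genes tested, a choice made after seeing the data in place of adjustment over members alone. Genes entered with at least 10 mean CPM for the RGC to PN ratio, a mean share of at least 1%, or at least 30 UMIs for the Top2a comparison. Phases were called with Seurat 5.3.0. DESeq2 1.42.0 and limma 3.58.1 served as alternatives. Scripts were tested on simulated data. The members and lists were chosen with earlier results of these data known. All members were named, with the 3 genes most like each by correlation over clusters, of which 1 is not reported here. Other G1/S genes were to be named where called in a cluster. Saline embryo S2-3 was not used here.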

Additional observations from a re-analysis of the deposited data

Results flagged for a closer look

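In 8 of 124 groups of 5 or 6 embryos, 1 embryo lay far from the rest by Dixon's test, where chance gives about 1 in 20. Ccnd1 in RGCs of saline embryo S2-1 had 26.9 CPM, against 14.2 to 17 CPM in the other saline embryos. Ccnd2 had 120 CPM in IPCs of EtOH embryo E2-2, against 138 to 146 CPM, and 45.1 CPM in PNs of saline embryo S2-2, against 25.1 to 30.3 CPM. Cdk6 had 33.9 CPM in the Other class of saline embryo S1-1, against 21.1 to 22 CPM, and 3.51 CPM in Cluster 8 of EtOH embryo E2-3, against 11.5 to 14.7 CPM. Without E2-3, the log2 fold change of Cdk6 in Cluster 8 was -0.87 (adjusted p = 0.0683). Cdkn1b had 24.1 CPM in Int of saline embryo S2-4, against 17.7 to 18.9 CPM. Rb1 had 226 CPM in the Other class of EtOH embryo E1-2, against 179 to 190 CPM, and Btg2 had 32.3 CPM over all nuclei of EtOH embryo E1-1, against 21.4 to 25 CPM.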

How the results depend on the processing

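Cdk6 in Clusters 1 and 8, in PNs and over all nuclei and Rbl1 in PNs stayed lower after EtOH in every alternative that gave a value. The call of Rbl1 in PNs was kept in 12 of 19 alternatives, and that of Cdk6 in 6 of 19 in Cluster 1, 5 of 19 in Cluster 8, 4 of 19 in PNs and 8 of 18 over all nuclei. In the 25 clusters, the 2 member calls became 0 with batch as a term, 0 after thinning, 1 without TMM, 8 without filterByExpr and 0 to 9 when 1 embryo was left out, the 9 without S2-4. In major cell types, the 2 calls became 0 with counts summed per dam, 1 without TMM, with limma voom and the dam as a block, without filterByExpr or after thinning, and 0 to 4 when 1 embryo was left out. Over all nuclei, the 1 call became 5 with no fold limit, 0 with counts summed per dam, without TMM or after thinning, and 0 to 1 when 1 embryo was left out. The 0 calls of other G1/S genes in clusters became 2 with DESeq2, 1 with batch as a term, 1 with limma voom, 9 without filterByExpr and 0 to 15 when 1 embryo was left out, the 15 without S2-4. For shares of nuclei, adjusted over member pairs alone, the 0 calls became 12 without thinning, when depth differed between groups, and stayed 0 to 0 when 1 embryo was left out. Counts without filterByExpr or without thinning were not compared with the share over all genes in the same setting. The RGC against PN test, adjusted over the members alone, gave 0 calls, and 0 to 2 when 1 embryo was left out, the 2 without E1-2. Adjusted over all genes, both tests gave 0 calls with and without S2-4, for the members as for every other gene. The Top2a comparison, adjusted over member pairs alone, gave 10 calls, 20 without thinning, 5 with Mki67 in place of Top2a, 5 adjusted over all genes, and 4 to 11 when 1 embryo was left out. The percentage of PN nuclei called G2/M without Cdkn1b and Cdkn2c, 9.97%, was 7.15% with another seed, 8.68% after thinning and 9.51 to 10.2% when 1 embryo was left out. Fewer genes pass the count filter after thinning; the cause of the other changes was not tested. No paired analysis was possible because no embryo of one group has a counterpart in the other. The batches, each with a saline and an EtOH dam, entered as a term instead, which kept the 2 calls in major cell types and the 1 over all nuclei. Depth limits Cdkn2c most, with 1348 UMIs in all.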
